A study of Danio rerio with 30 samples.

Results

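Keratin and keratinocyte genes are described here across whole zebrafish larvae exposed to 3 parabens. The 10 genes are krt4, krt5, krt8, krt91, krt97, krtt1c19e, cyt1, cyt1l, icn and anxa1a, chosen by name out of the 31846 gene symbols of the deposited table, and all 10 passed the filter on low counts. RNA-seq was made from whole AB wild-type larvae at 120 hours post fertilisation. The treated groups were methylparaben (MtP), ethylparaben (EtP) and propylparaben (PrP), each at the dose labels BMD5/50, BMD5/10 and BMD5, and the untreated group was Control. Each of the 10 groups had 3 libraries, which the labels number 1 to 3. The groups carry no genetic alteration in the labels, and the concentrations behind the dose labels were not given in the sources used here. The labels do not say that the 3 libraries of a group came from separate clutches, so p-values measure the spread between these libraries, which may be technical.

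Keratins are the intermediate filament proteins of epithelia. A type I and a type II keratin pair to form the filament, and filaments anchor at desmosomes between cells and at hemidesmosomes to the basement membrane. The skin of a zebrafish larva is a thin epidermis with an outer layer, the periderm, over a layer of basal keratinocytes, with ionocytes and mucous cells set among them. Parabens are alkyl esters of 4-hydroxybenzoic acid used as preservatives, and the 3 compounds differ in the alkyl group, which is methyl, ethyl or propyl.

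Among the 10 genes, krt4, krt5 and krt8 encode type II keratins, and krt8 is the zebrafish counterpart of the keratin of simple epithelia. The gene cyt1 encodes a type I cytokeratin of the outer layer, cyt1l is its near copy, and krtt1c19e encodes a type I keratin widely used as a marker of basal keratinocytes in zebrafish. Keratins 91 and 97 are encoded by krt91 and krt97. The set is completed by calcium-dependent proteins, namely icn, ictacalcin, an S100-family protein of the epidermis, and anxa1a, annexin A1, which binds membrane phospholipids.

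By the coordinates of the deposited table, whose build was not given in the sources used here, 4 of the 10 genes lie within 41.4 kb of chromosome 19, at 5339364 to 5380770 on the minus strand. The order along the chromosome is krtt1c19e, krt92, cyt1l, cyt1, krt17 and krt91, so krt92 and krt17 are the only genes of the table in this interval outside the set. The type II genes krt5 (10173196 to 10177458) and krt8 (10249626 to 10254288) are both on the minus strand of chromosome 23, and krt4 is on the minus strand of chromosome 6 (39308498 to 39313027). The remaining genes are krt97 on chromosome 22 (11756040 to 11759106, plus strand), icn on chromosome 16 (23431189 to 23432552, plus strand) and anxa1a on chromosome 5 (25578181 to 25583325, minus strand). The 10 genes have 26 transcripts in the table, and 1 transcript held between 89.5% (anxa1a) and 100% (krt4, krt97 and icn) of a gene's reads. Reads of near copies such as cyt1 and cyt1l may have been split between them in the authors' counting, so single values of these genes are uncertain.

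All 10 genes were abundantly expressed, with no library below 375 reads for any of them. Levels per transcript length were compared in the deposited TPM, an abundance scaled for transcript length and library size. Over the 30 libraries the median TPM was highest for cyt1 (3540), followed by krt91 (2999), cyt1l (1983), krtt1c19e (1374), krt4 (1197) and krt5 (1033). Lower medians were found for icn (716 TPM), krt97 (239 TPM), krt8 (181 TPM) and anxa1a (123.1 TPM). The 4 genes of the chromosome 19 interval thus held the 4 highest medians of the set.

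**Figure D1:**
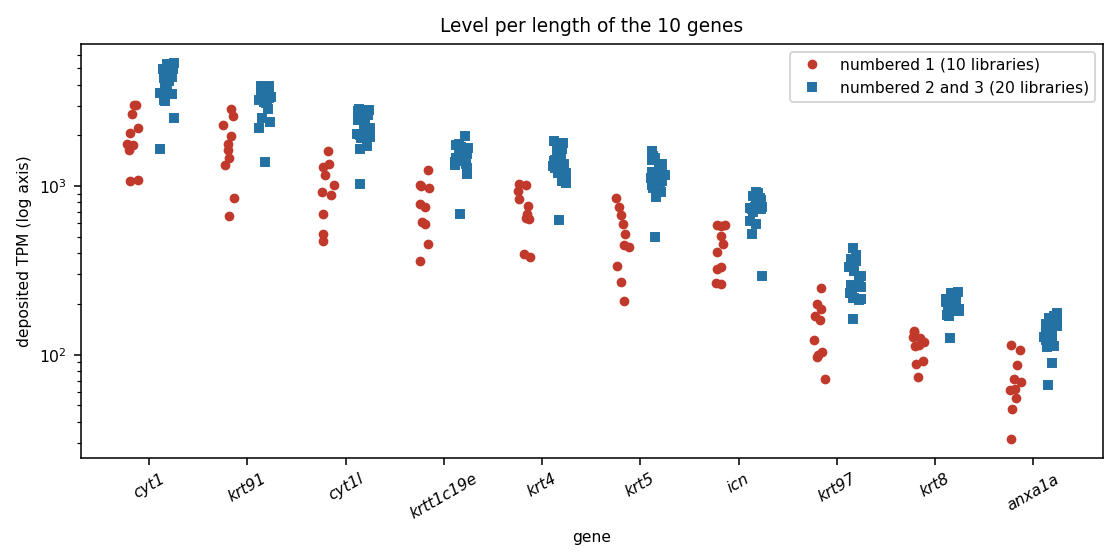
Deposited TPM (log axis) of the 10 genes in each of the 30 libraries, with the 10 libraries numbered 1 as circles and the 20 numbered 2 and 3 as squares. The median over all libraries is 3540 TPM for cyt1 at the left and 123.1 TPM for anxa1a at the right.

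The libraries also differed in ways that the group labels do not give. Those numbered 1 stood apart from those numbered 2 and 3 in every group, Control included: of 18543 genes tested, 10461 differed between the numbers, whereas 16 genes and 0 of the 10 differed between numbers 2 and 3. Reads on transcripts annotated as retained introns made up 1.05% to 1.30% of a library numbered 1 and 0.713% to 1.11% of those numbered 2 or 3. PrP BMD5 replicate 3 was the other library to stand apart, with 15.6% of its reads on zgc:158463 and CT027638.1, against at most 3.06% in the other 29 libraries. Total counts ran from 9711814 to 24468093. Comparisons with Control are therefore given with all libraries, within each number and without number 1.

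The 10 genes were lower in the libraries numbered 1. They took between 0.495% and 1.52% of the reads of these 10 libraries and between 1.08% and 2.57% in the 20 numbered 2 and 3. All 10 genes fell in number 1 against the mean of numbers 2 and 3 in an additive model of group and number (edgeR quasi-likelihood test with Benjamini-Hochberg adjustment over all genes, adjusted p between 6.07e-10 and 1.02e-06). Over all genes tested, 29.0% fell and 56.4% changed in either direction in the same test. The median log2 fold change of the 10 was -1.27 and that of all genes 0.03. In whole larvae, fewer cells of a type and less RNA per cell cannot be told apart.

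Among the type II keratins the largest change was that of krt5. It had 381, 941 and 1544 CPM (reads scaled to library size with TMM factors) as the lowest, median and highest of the 10 libraries numbered 1, against 1511, 2601 and 3222 CPM in the 20 numbered 2 and 3. The highest value of number 1, in Control, just passed the lowest of the others, in PrP BMD5 replicate 3. The log2 fold change was -1.51 ± 0.16 (SE; n = 10 and 20). For krt4 the lowest, median and highest values were 714, 1451 and 1989 CPM in number 1 and 1977, 3363 and 4167 CPM in numbers 2 and 3, a log2 fold change of -1.23 ± 0.13. Again a single library numbered 1 reached into the range of the others. In krt8 the numbers did not overlap at all, with 122.5, 205 and 235 CPM in number 1 and 320.5, 422 and 463 CPM in numbers 2 and 3. Its change was smaller, at -1.10, and its standard error of 0.07 was the smallest of the 10.

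The type I genes of chromosome 19 fell by a similar amount. In cyt1 the lowest, median and highest values were 1151, 2311 and 3491 CPM in number 1 and 3065, 5714 and 7989 CPM in numbers 2 and 3, a log2 fold change of -1.28 ± 0.14. Its near copy cyt1l had 453, 1046 and 1662 CPM in number 1 and 1715, 2770 and 3970 CPM in numbers 2 and 3. The 2 ranges of cyt1l did not overlap, and its log2 fold change was -1.50 ± 0.14. Over all genes tested, 3.3% were lower in number 1 with no overlap, and krt8 and cyt1l were the only members to show it. The basal marker krtt1c19e had a median of 925 CPM in number 1 and 2131 CPM in numbers 2 and 3 (log2 fold change -1.26 ± 0.13). For krt91 the medians were 2073 CPM in number 1 and 4613 CPM in numbers 2 and 3 (-1.20 ± 0.15).

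Outside these keratins, krt97 had a median of 157 CPM in number 1 and 362 CPM in numbers 2 and 3, a log2 fold change of -1.27 ± 0.14. The calcium-dependent genes moved with the keratins. The median of icn was 78.5 CPM in number 1 and 157 CPM in numbers 2 and 3 (-1.08 ± 0.13), and that of anxa1a was 58.4 CPM in number 1 and 142.6 CPM in numbers 2 and 3 (-1.27 ± 0.13). Ictacalcin had the most overlap, since only 5 of its 10 libraries numbered 1 lay below all of the others.

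**Figure D2:**
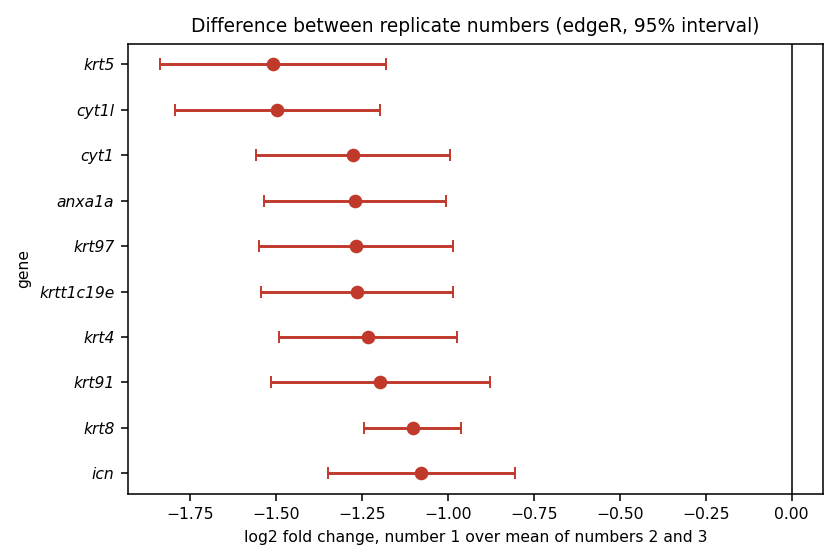
Log2 fold change of the 10 genes in libraries numbered 1 over the mean of numbers 2 and 3, with 95% intervals from edgeR. All 10 intervals lie below 0, from krt5 at -1.51 to icn at -1.08.

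The gap between the numbers was present in each group. In all 10 genes and all 10 groups, the library numbered 1 lay below the mean log2 CPM of the other libraries of its group. On the log2 scale the gap ran from -2.13 to -0.56 over the 9 treated groups for krt4 and was -1.03 in Control. For krt91 it ran from -2.30 to -0.59 in the treated groups and was -0.77 in Control. For all 10 genes the Control gap lay inside the range of the 9 treated groups. The widest gaps belonged to MtP BMD5 for 5 genes, PrP BMD5/10 for 4 and EtP BMD5/50 for krt97.

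**Figure D3:**
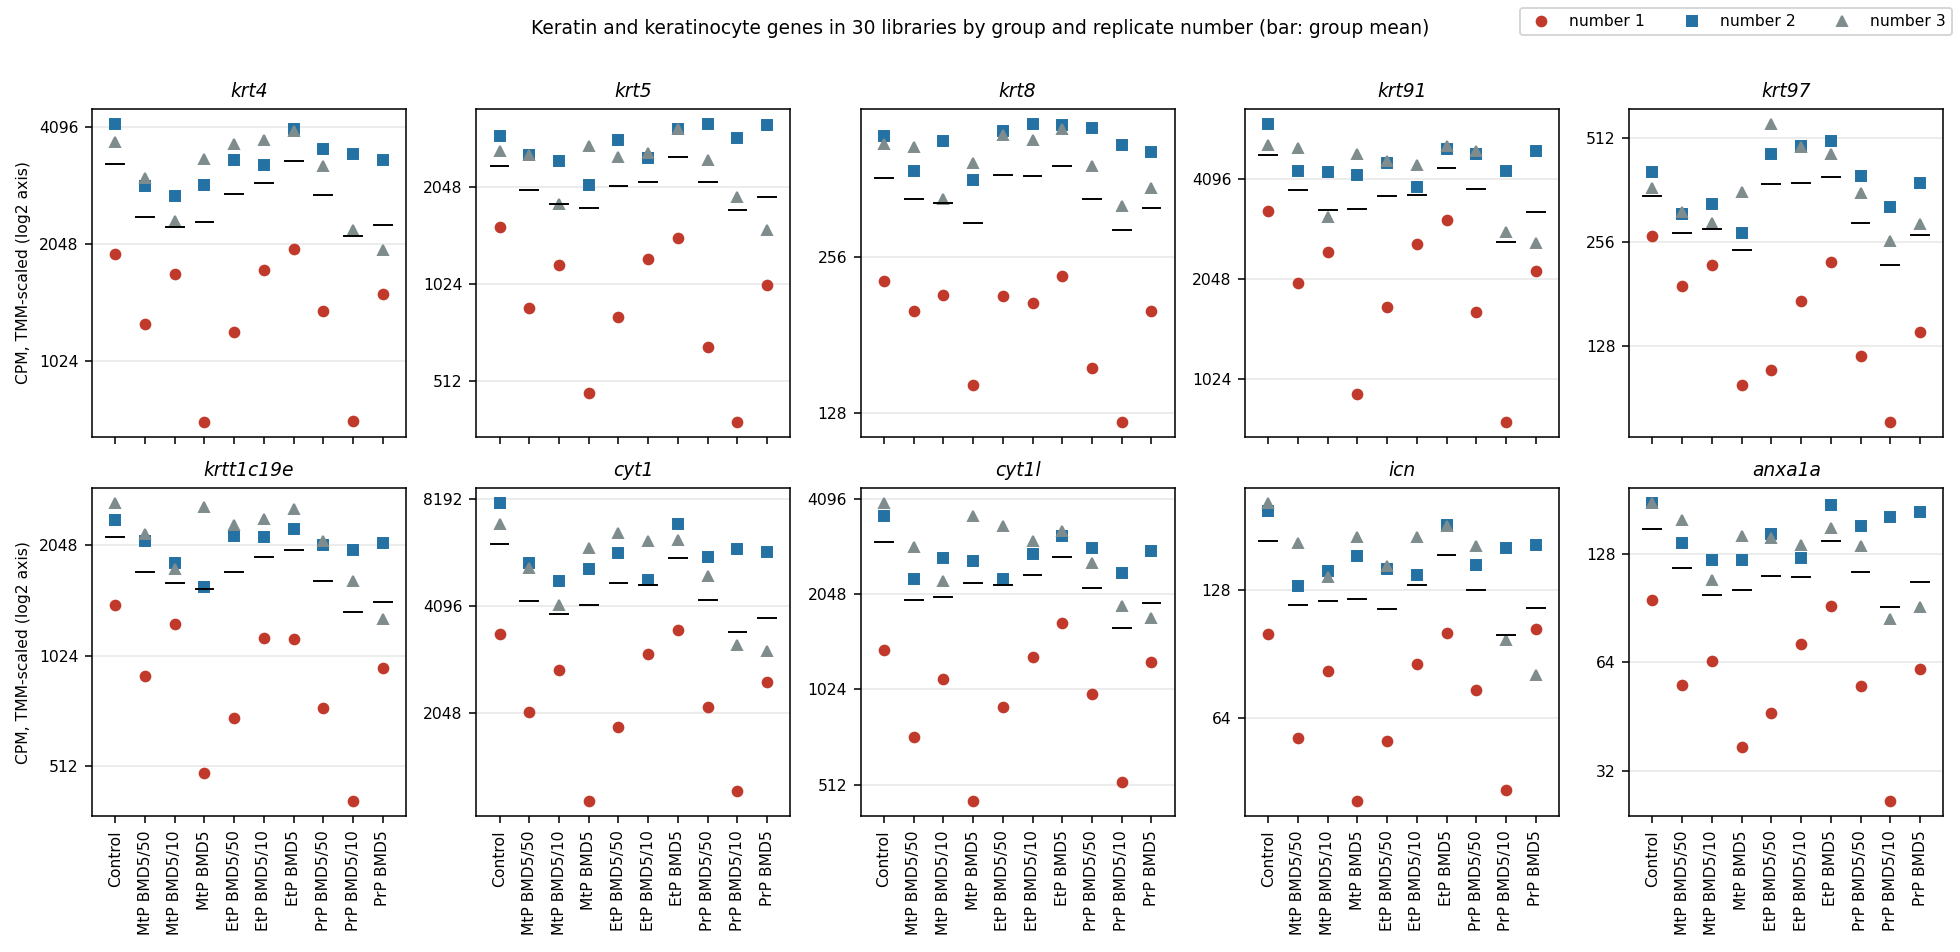
TMM-scaled CPM (log2 axis) of the 10 genes in each library, by group and replicate number, with the group mean as a bar. The library numbered 1 is the lowest of its group for each gene except icn in PrP BMD5, where replicate 3 is lower.

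Ratios between members were compared within each library. The log2 ratio of krt5 to krt4 had a median of -0.57 in number 1 and -0.36 in numbers 2 and 3. That of cyt1l to cyt1 had a median of -1.23 in number 1 and -0.96 in numbers 2 and 3. The ratio of krtt1c19e, the basal marker, to cyt1 was nearly the same, at -1.40 in number 1 and -1.38 in numbers 2 and 3. Medians of krt91 over cyt1 were -0.19 in number 1 and -0.31 in numbers 2 and 3, and those of krt8 over krt4 were -2.95 in number 1 and -3.03 in numbers 2 and 3. In all 5 ratios the ranges of the numbers overlapped.

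Other epidermal genes moved in the same direction between the numbers. The gene lists here and below were chosen with earlier results of these data known, so they describe the gap and do not test it. Of 14 other keratin genes with enough reads, 13 fell in number 1, with a median log2 fold change of -1.37, and krt98, with a mean below 1 CPM, was the exception at 0.03 ± 0.28. The 4 most abundant were krt17 (-1.45 ± 0.18), krt92 (-1.65 ± 0.12), krt15 (-1.29 ± 0.09) and krt18a.1 (-0.99 ± 0.08), so the 2 remaining genes of the chromosome 19 interval fell with their neighbours. All 18 tested genes of epidermal adhesion and junctions fell, with a median of -1.25. They include perp, a desmosomal membrane protein (-0.97 ± 0.13), and jupa, plakoglobin (-0.70 ± 0.09). Of 12 genes of basal keratinocytes and their basement membrane, 10 fell and 1, frem2a, rose. The collagen of hemidesmosomes, col17a1a, changed by -1.70 ± 0.22 and the laminin chain lama5 by -0.41 ± 0.09.

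Regulators of the epidermis moved in both directions. Of 14 tested transcription factors, proteases and protease inhibitors, 12 fell with a list median of -1.18, among them spint2, an inhibitor of serine proteases, by 1.46 on the log2 scale. The transcription factor tfap2a, the most abundant of the list, rose by 0.27 ± 0.05. Further annexins fell in 13 of 14 cases, and anxa2a changed by -1.28 ± 0.14, whereas anxa13 was at 0.04 ± 0.04. Of 12 other S100 genes 11 fell, including icn2 (-1.17 ± 0.16) and s100a10b (-1.001 ± 0.125). Of all 18543 genes tested, 5385 were lower and 5076 higher. Ionocyte genes were divided, with 7 of 12 lower and 2 higher. The higher ones were the proton pump subunits atp6v1aa (0.34 ± 0.04) and atp6v1ba (0.26 ± 0.06), which other cells express too. All 3 genes of mucous cells fell, with muc5.1 at -0.90 ± 0.16 and muc5.2 at -0.81 ± 0.21.

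Markers of tissues other than skin also differed between the numbers. All 10 liver genes fell, with a median log2 fold change of -2.53, and their summed level ran from 68.4 to 254 CPM in number 1 and from 222 to 2245 CPM in numbers 2 and 3. All 8 intestinal genes fell (median -1.78), with sums of 60.6 to 138.2 CPM in number 1 and 175 to 1067 CPM in numbers 2 and 3. The 10 genes of skeletal muscle fell too (median -0.89), with sums of 39544 to 88950 CPM in number 1 and 101294 to 151903 CPM in numbers 2 and 3. In the notochord list all 11 genes fell (median -0.94), with sums of 402 to 859 CPM in number 1 and 768 to 1417 CPM in numbers 2 and 3. Neuronal genes went the other way, with 9 of 11 higher and 1 lower, and sums of 3041 to 3568 CPM in number 1 and 2451 to 2975 CPM in numbers 2 and 3. Of all 18543 genes tested, 5076 were higher in number 1. A single hatching gland gene had enough reads, at most 4.34 CPM, and did not pass the test. No marker in these lists was at 0 reads over all libraries. The part of these tissues, of the retained introns and of depth in the lower keratin levels was not tested.

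**Figure D4:**
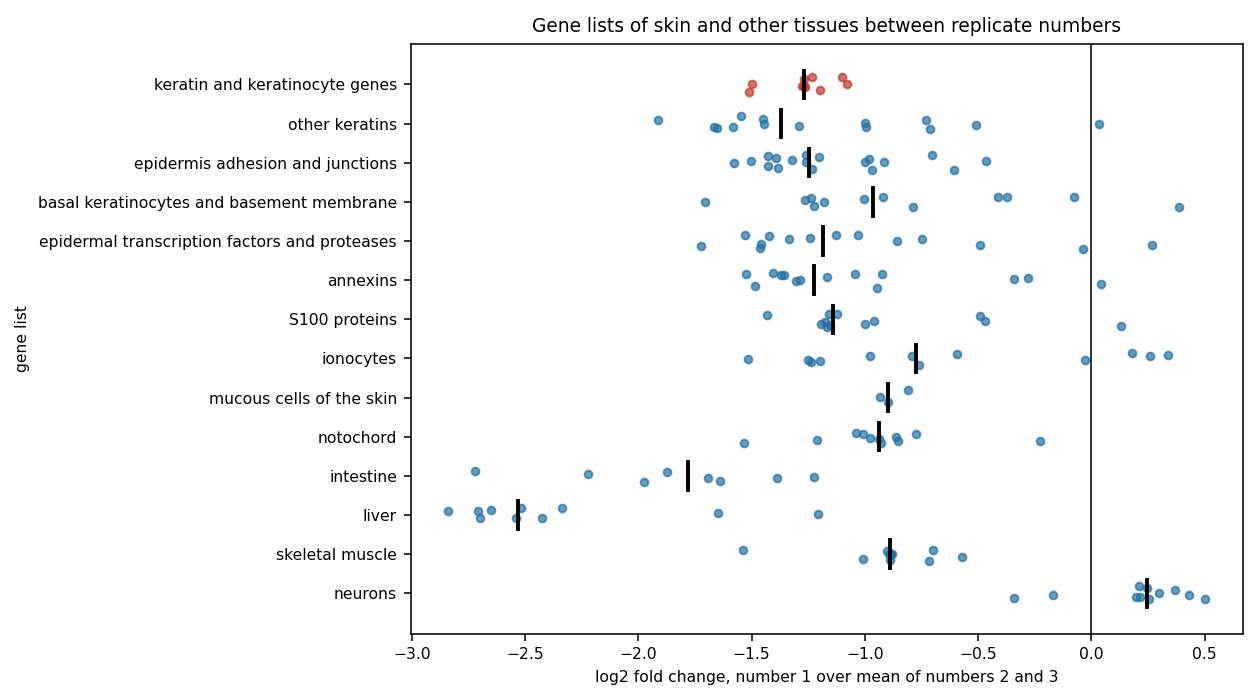
Log2 fold change of each tested gene in libraries numbered 1 over the mean of numbers 2 and 3, by gene list, with the list median as a bar. The 10 keratin and keratinocyte genes at the top have a median of -1.27, against -2.53 for liver and 0.25 for neurons.

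Against Control, the 10 genes had lower means in most treated groups, but none passed the test. No member was called in any of the 9 comparisons with Control (edgeR, lowest adjusted p = 0.999), 0.0% of all genes were called in each, and DESeq2 also called 0 genes. None of the 10 had an unadjusted p under 0.05. At BMD5/50, BMD5/10 and BMD5, the share of all genes that did was 4.73%, 1.81% and 1.26% in MtP, 2.84%, 3.66% and 2.05% in EtP, and 1.57%, 2.5% and 1.86% in PrP. All 10 log2 fold changes were below 0 in the MtP groups, where 50.4%, 50.4% and 50.6% of all genes were, and in the PrP groups, where 47.8%, 48.5% and 48.6% were. In the EtP groups 8, 8 and 6 of the 10 were below 0 at BMD5/50, BMD5/10 and BMD5, against 48.5%, 49.1% and 47.4% of all genes. These comparisons share the same 3 Control libraries, so their counts are not independent. The 10 genes also moved together over the libraries, so counts of members here and below are not counts of separate results.

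The median log2 fold changes of the 10 genes, from BMD5/50 through BMD5/10 to BMD5, were -0.36, -0.50 and -0.48 for MtP. For PrP they were -0.36, -0.70 and -0.52. For EtP they were -0.34, -0.26 and -0.11, so EtP had the median nearest to 0 at BMD5. PrP BMD5/10 had the lowest group mean of all 10 genes, while the highest belonged to Control for 6 genes and to EtP BMD5 for krt4, krt5, krt8 and krt97. In the order of the 10 groups, every neighbouring pair overlapped in its library values, and so did the lowest and highest group for each gene. These medians moved with single libraries. Leaving out the treated library numbered 1, which leaves Control with that number, gave -0.08, -0.28 and -0.06 for MtP, -0.01, -0.27 and -0.33 for PrP and 0.03, 0.01 and 0.13 for EtP, in the same order of dose labels. Leaving out Control replicate 1 gave -0.57, -0.76 and -0.74 for MtP, -0.59, -0.94 and -0.80 for PrP and -0.60, -0.53 and -0.36 for EtP.

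In PrP BMD5/10, krt91 had 755, 4332 and 2840 CPM in libraries 1, 2 and 3, against 3281, 6017 and 5189 CPM in Control. Each library lay below the Control library of its number, but the groups overlapped. The fitted log2 fold change was -0.87, with a 95% interval of -2.07 to 0.33. For cyt1 the values were 1234, 5923 and 3186 CPM in PrP BMD5/10 and 3404, 7989 and 6965 CPM in Control, with a log2 fold change of -0.83 (-2.06 to 0.40). The lowest fold change was that of cyt1l, at -0.90 (-2.28 to 0.48), with 522, 2389 and 1880 CPM in PrP BMD5/10 and 1358, 3607 and 3970 CPM in Control. The smallest in size was that of krt8, at -0.34 (-1.33 to 0.65), with 122.5, 421 and 320.5 CPM in PrP BMD5/10 and 229.8, 438 and 423 CPM in Control. In each of these 4 genes the lowest PrP BMD5/10 value was that of library 1.

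In MtP BMD5 the difference lay mostly in library 1. The values of krt4 were 714, 2894 and 3388 CPM in MtP BMD5 and 1935, 4167 and 3746 CPM in Control. Those of krt5 were 471, 2082 and 2745 CPM in MtP BMD5 and 1544, 2958 and 2650 CPM in Control, so that library 3 was above its Control counterpart. For anxa1a the values were 37.3, 123.5 and 143.7 CPM in MtP BMD5 and 95.5, 178 and 177 CPM in Control. Over the 10 genes, the median difference from the same-numbered Control library was -1.48 in number 1, -0.52 in number 2 and -0.13 in number 3. Without MtP BMD5 replicate 1, 7 of the 10 fold changes were below 0 and the median of the 10 was -0.06, but Control kept its number 1 there. Without number 1 in both groups, all 10 were below 0, with a median of -0.31.

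Set against the Control library of the same number, all 10 genes were lower in all 3 numbers in MtP BMD5/50, MtP BMD5/10 and PrP BMD5/10, where 18.4%, 17.2% and 11.8% of all genes were. In MtP BMD5 9 of the 10 were (16.0% of all genes), and in PrP BMD5/50 and PrP BMD5 8 in each (10.9% and 12.4%). In EtP the counts were 8, 7 and 3 at BMD5/50, BMD5/10 and BMD5, against 11.4%, 12.4% and 11% of all genes. Number 1 of PrP BMD5/10 was the farthest below, with a median of -1.62 over the genes, and numbers 2 and 3 were at -0.28 and -0.81. PrP BMD5 was lowest in number 3, the library with the excess of zgc:158463 and CT027638.1 reads, at a median of -0.97, against -0.51 in number 1 and -0.24 in number 2. Without that library, and with Control replicate 3 kept, the fitted median of PrP BMD5 was -0.42, and all 10 genes were still below 0.

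**Figure D5:**
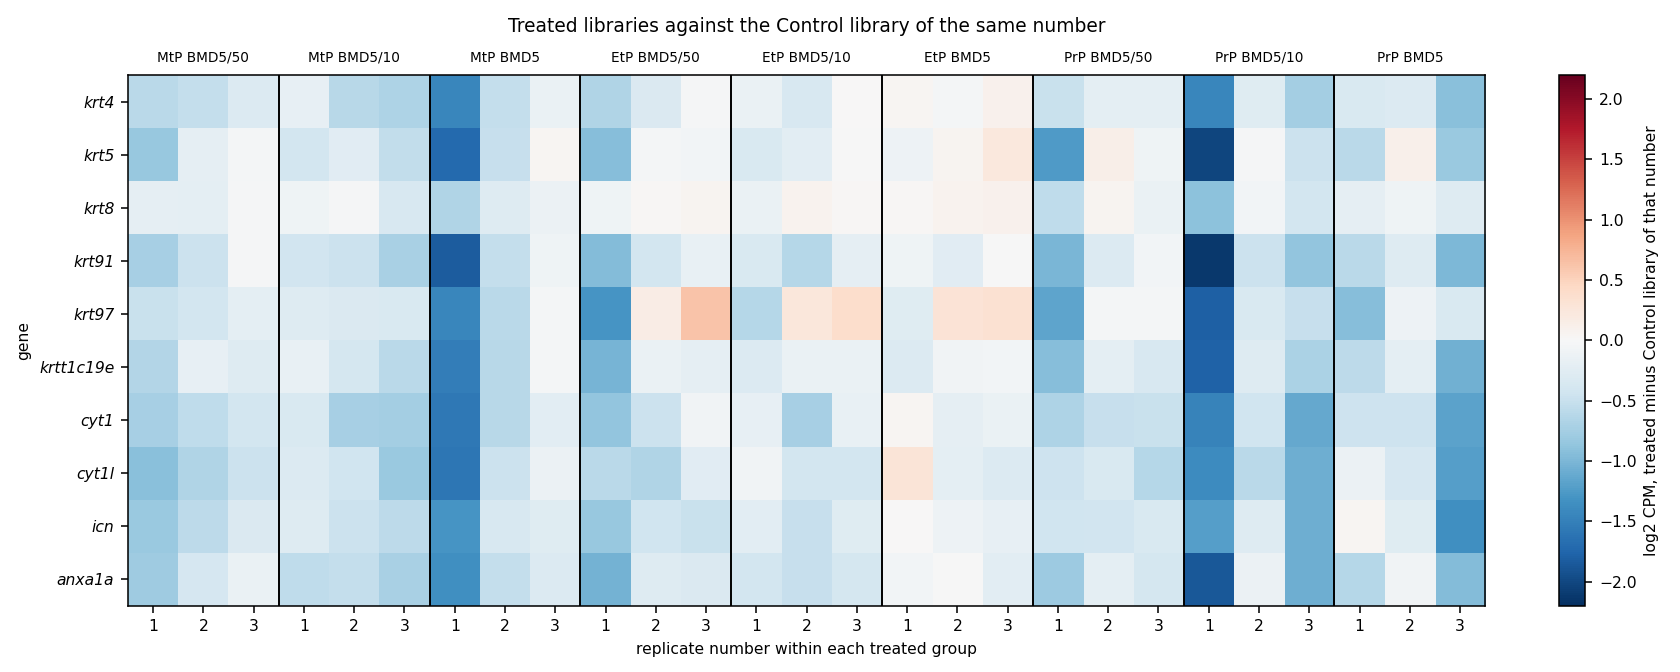
Log2 CPM of each treated library minus that of the Control library with its number, for the 10 genes. Blue is below Control and red above, and the darkest columns are number 1 of MtP BMD5 and of PrP BMD5/10, with medians of -1.48 and -1.62.

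By the pairing rule used here, with correlations over 0.1 in each number, same-numbered libraries deviated together in 5 of the 9 comparisons with Control. These were the 3 of MtP and those of PrP BMD5/50 and PrP BMD5/10. The EtP comparisons missed the rule in number 2 and PrP BMD5 in number 3. In number 1 their correlations were 0.29 to 0.33. For the 10 genes, number 1 lay lower in these groups too, so missing the rule does not make them free of the number. With the replicate number as a block, all 10 genes had an unadjusted p under 0.05 in PrP BMD5/10, where 7.57% of all genes did, and in MtP BMD5, where 5.03% did. In the other paired comparisons fewer did, namely 3 in MtP BMD5/50, 2 in MtP BMD5/10 and 0 in PrP BMD5/50. Of the 18543 genes, 1652, 964 and 618 had such a p there. Outside the pairing rule, the block fit gave 3 members in PrP BMD5 (778 of all genes) and 2 in EtP BMD5/50 (1405 of all genes). It gave 0 in EtP BMD5/10 and EtP BMD5 (1676 and 1121 of all genes). None passed the adjustment, and 0.0% of all genes did (edgeR, lowest adjusted p = 0.405 in PrP BMD5/10 and 0.942 in MtP BMD5). Because the 10 genes moved together over the libraries, these counts of members are not counts of separate results. The block fit gave krt91 -1.08 ± 0.31, cyt1 -0.96 ± 0.27 and anxa1a -0.93 ± 0.26 in PrP BMD5/10. Over the 10 genes its median was -0.88 in PrP BMD5/10 and -0.67 in MtP BMD5. Without the libraries numbered 1, the median over the 10 genes was -0.50 in PrP BMD5/10 and -0.31 in MtP BMD5. It was -0.55 in MtP BMD5/10 and -0.57 in PrP BMD5, and again no member passed the test against Control. PrP BMD5 then kept replicate 3, the library with the excess of zgc:158463 and CT027638.1 reads. Its same-numbered median was -0.97, against -0.24 in number 2. The other groups were nearer to 0, at -0.28 in MtP BMD5/50 and -0.25 in PrP BMD5/50. In EtP the median was -0.23, -0.28 and -0.11 at BMD5/50, BMD5/10 and BMD5, with 8, 8 and 6 of the 10 below 0. The share of all genes called against Control in this fit was 0.0% in each MtP and PrP group. In EtP it was 0.636%, 2.08% and 0.361% at BMD5/50, BMD5/10 and BMD5. An unadjusted p under 0.05 (edgeR) was found for 7 members in MtP BMD5/10, 7 in PrP BMD5/10 and 6 in PrP BMD5. Of 18855 genes, 1042, 1226 and 1312 had such a p there. MtP BMD5/50, PrP BMD5/50 and EtP BMD5/50 had 1 member each (2042, 549 and 2459 of all genes). MtP BMD5, EtP BMD5/10 and EtP BMD5 had 0 (504, 2828 and 2318 of all genes).

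Within the libraries numbered 2 and 3, the 2 Control libraries were above all 18 treated ones for krt91, cyt1, icn and anxa1a. Of all genes 0.631% showed this. For cyt1 the highest treated value was 6960 CPM, in EtP BMD5, and the Control values were 7989 and 6965 CPM, so the distance was small. For krt91 the highest treated value was 5150 CPM, also in EtP BMD5, and the Control values were 6017 and 5189 CPM, again a small distance. For icn the highest treated value was 182 CPM, and the Control values were 196 and 205 CPM. For anxa1a it was 175.7 CPM, against 178 and 177 CPM in Control. The genes of the set moved together over the libraries, so these are not separate results.

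In each of the 3 EtP groups, krt97 had the highest fold change of the 10 against Control. Within numbers 2 and 3, krt97 had 461, 484 and 565 CPM as the lowest, median and highest of the 6 EtP libraries. The 6 MtP libraries ran from 272 to 357 CPM, the 6 PrP libraries from 258 to 399 CPM, and the 2 Control libraries had 410.0 and 367 CPM. All 6 EtP libraries were above the other 14, which 0.555% of all genes showed. In the libraries numbered 1 the EtP values of 109, 173 and 224 CPM were below the 268 CPM of Control. The direction of krt97 in EtP against Control thus differed between the numbers. With all libraries, its log2 fold change in EtP BMD5 was 0.19 (95% interval -1.01 to 1.38) and did not pass the test. Without number 1, krt97 had a log2 fold change of 0.29 ± 0.15 in EtP BMD5, 0.31 ± 0.15 in EtP BMD5/10 and 0.39 ± 0.15 in EtP BMD5/50 against Control, and the lowest adjusted p was 0.274.

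The 3 compounds were compared in 9 pairs of groups with the same dose label, which need not be the same concentration. No member was called in any of the 9 (edgeR, all libraries, 0.0% of all genes called in each, and 0 genes called by DESeq2). Without the replicate number in the fit, none of the 10 had an unadjusted p under 0.05. At BMD5/50, BMD5/10 and BMD5, the share of all genes that did was 6.99%, 3.12% and 3.82% in EtP against MtP, 2.79%, 1.21% and 2.41% in PrP against MtP, and 3.47%, 1.66% and 1.76% in PrP against EtP. With the replicate number as a block, 7 members had such a p in PrP BMD5/10 against EtP BMD5/10, where 1382 of 18543 genes did. In PrP BMD5 against EtP BMD5 and PrP BMD5/10 against MtP BMD5/10, 2 members each did, with 663 and 546 of all genes. EtP BMD5 against MtP BMD5 had 6 (2670 of all genes), with block log2 fold changes of 0.42 to 0.79 and a median of 0.61. It missed the pairing rule of correlations over 0.1 in number 2 only, at 0.07, against 0.51 and 0.38 in numbers 1 and 3. The remaining pairs had 0, and no member passed the adjustment. Fold changes below leave this block out. At BMD5 all 10 genes were higher in EtP than in MtP, with log2 fold changes between 0.26 (cyt1l) and 0.71 (krt97) and a median of 0.42, and 47.7% of all genes were below 0 in this comparison. The 95% intervals of the 10 reached from -1.11 to 1.95, so neither a difference of this size nor its absence can be read from them. Without MtP BMD5 replicate 1 the median was 0.00, and 5 of the 10 were below 0, but EtP BMD5 kept its number 1 there. Without number 1 in both groups the median was 0.25, with 0 of the 10 below 0. With all libraries, the median of EtP against MtP was 0.22 at BMD5/10, with 0 of the 10 below 0. At BMD5/50 it was 0.10, with 4 below 0. PrP at BMD5 was lower than EtP in all 10 genes, with a median of -0.46, and at BMD5/10 likewise, with a median of -0.45, where 51.3% and 52.3% of all genes were lower. At BMD5/50 this was not so, with a median of -0.02 and 6 of the 10 below 0, as were 51.05% of all genes. At BMD5/10 the medians of PrP minus EtP in libraries of the same number were -1.29, 0.12 and -0.68 on the log2 CPM scale, and in number 2 only 4 of the 10 were below 0. Without PrP BMD5/10 replicate 1 the fitted median was -0.03, with 7 of 10 below 0, and without replicate 2 it was -0.99. At BMD5 it ran from -0.88 without PrP BMD5 replicate 2 to -0.24 without replicate 1, with all 10 below 0 in both. The EtP group kept all 3 libraries in these fits. Without number 1 in both groups, the median of PrP against EtP was -0.27 at BMD5/10 and -0.50 at BMD5, with all 10 below 0 in each. The value at BMD5 includes PrP BMD5 replicate 3, with its excess of zgc:158463 and CT027638.1 reads. Same-numbered medians at BMD5 were -0.16 in number 2 and -0.98 in number 3. Fitted medians of PrP against MtP were -0.03 at BMD5, -0.22 at BMD5/10 and 0.04 at BMD5/50. These hold opposite differences between libraries of the same number. At BMD5 those medians were 1.104, 0.23 and -0.88, with none of the 10 below 0 in numbers 1 and 2 and all 10 below 0 in number 3. At BMD5/10 they were -1.27, 0.15 and -0.17. With 1 library left out, the fitted median at BMD5 ran from -0.48 without MtP BMD5 replicate 1 to 0.34 without MtP BMD5 replicate 3. At BMD5/10 it ran from -0.75 without PrP BMD5/10 replicate 2 to 0.18 without PrP BMD5/10 replicate 1. At BMD5/50 it ran from -0.29 without MtP BMD5/50 replicate 1 to 0.38 without PrP BMD5/50 replicate 1. In each of these fits the other group kept its library of that number. Without number 1 in both groups, the medians of PrP against MtP were -0.25, -0.01 and 0.05 at BMD5, BMD5/10 and BMD5/50. Of the 10 genes, 8, 5 and 3 were then below 0. The values at BMD5 again include PrP BMD5 replicate 3.

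With number 1 left out, a single member passed the test in a single pair of compounds. In EtP BMD5/10 against MtP BMD5/10, krt97 then rose by 0.63 ± 0.15 on the log2 scale (edgeR adjusted p = 0.0410), with 2.56% of all genes called. Its values there were 486 and 483 CPM in EtP BMD5/10 and 330 and 291.5 CPM in MtP BMD5/10. The library numbered 1 had 173 CPM in EtP BMD5/10 and 219 CPM in MtP BMD5/10, the opposite order. The replicate numbers pair these groups, and with them as a block 1 gene was called (0.00539% of all), which was not a member. The corresponding differences of krt97 at BMD5 (0.60 ± 0.15) and BMD5/50 (0.70 ± 0.16) had adjusted p of 0.105 and 0.0678 without number 1, where 0.334% and 0.0% of all genes were called.

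Between the dose labels of a compound, BMD5 against BMD5/50, no member was called in any of the 3 comparisons (edgeR, 0.0% of all genes called in each, and 0 genes called by DESeq2). None of the 10 had an unadjusted p under 0.05, which 1.97%, 0.825% and 3.48% of all genes had in MtP, EtP and PrP. Median log2 fold changes of the 10 genes were -0.16 for MtP, 0.28 for EtP and -0.15 for PrP. In MtP the medians of same-numbered libraries were -0.84, -0.06 and 0.12, and without MtP BMD5 replicate 1 the fitted median was 0.26, with none of the 10 below 0. In EtP all 10 were above 0, from 0.06 for krt8 to 0.42 for icn, where 49.5% of all genes were below 0. In number 1 the EtP median was 0.85, and in numbers 2 and 3 it was 0.20 and 0.10. Without EtP BMD5/50 replicate 1 the fitted median was -0.09, with 9 of 10 below 0. In PrP all 10 were below 0, as were 52.3% of all genes, but same-numbered medians were 0.35, 0.00 and -0.70. Without PrP BMD5 replicate 1 the fitted median was 0.06. In each of these fits with 1 library left out, the other group kept its number 1. Without number 1 in both groups, the medians were -0.03 for MtP, 0.15 for EtP and -0.27 for PrP. Of the 10 genes, 6, 1 and 10 were then below 0. The PrP values include PrP BMD5 replicate 3, the library with the excess of zgc:158463 and CT027638.1 reads.

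Of the authors' own comparisons with Control, the main transcripts of the 10 genes had an unadjusted p under 0.05 in MtP BMD5/10 only, for 3 of the 10 in the authors' deposited table. In that comparison 1.56% of all 59876 transcripts of the authors' deposited table, those with few or no reads included, had such a p. In the other 8 comparisons the share was 0.742% to 2.04% in the authors' deposited table. The lowest p-value of the main transcripts was 0.0325, for anxa1a-201 in MtP BMD5/10. The log2 fold change of anxa1a-201 was below 0 in all 9 comparisons, from -1.09 in PrP BMD5/10 to -0.32 in EtP BMD5. The anxa1a transcript with the next most reads, anxa1a-202, went the other way in all 9. It ran from 1.14 in MtP BMD5/50 to 3.71 in PrP BMD5/10, without a p under 0.05 in the authors' deposited table. The authors' deposited table gives a q-value of 1 for all 10 main transcripts in each of the 9 comparisons. A minor transcript, krt5-203, with 0.329% of the reads of krt5, had a log2 fold change of 9.75 in EtP BMD5/50. Its p-value there in the authors' deposited table was 0.0073 and its q-value 0.705. The same transcript was at 10.56 in EtP BMD5, 7.52 in EtP BMD5/10 and 3.55 in PrP BMD5/50, without a p under 0.05. It was at 0.0 in the MtP groups, PrP BMD5/10 and PrP BMD5.

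The genes most like the set were sought among 8767 genes with a mean of at least 10 CPM, by the mean absolute difference between a gene's centred log2 CPM and the mean of the 10, over all 30 libraries. Within the set, krt4 was the closest to the mean, at 0.06, and krt97 the farthest, at 0.19. Each member is part of this mean, which lowers its distance, so these values do not compare directly with those of genes outside the set. The closest pair was krt4 and cyt1, at 0.09, although they lie on different chromosomes, and the most distant was krt97 and icn, at 0.28. The median over the 8767 genes was 0.64. The 8 closest genes outside the set were zgc:92380 (0.07), si:ch211-166a6.5 (0.10), ckap4 (0.10), zgc:136930 (0.10), cdh1 (0.13), col5a3b (0.13), pfn1 (0.14) and col1a1a (0.14). Among them, cdh1 encodes E-cadherin, the adhesion protein of epithelia, pfn1 the actin-binding protein profilin, and col1a1a and col5a3b fibrillar collagen chains. The 30 libraries share the gap between the numbers, which enters this measure.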

How the data were processed

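RNA of whole larvae was sequenced, and libraries took their group and number from their titles. The columns named PP were matched to propylparaben. Per the file headers, the deposited values are read counts of transcripts in each library, and these were summed per gene symbol after removing the transcript suffix. TPM values, per the file headers, were used as the authors deposited them, and 30 columns of RPKM were not used. The deposited table also gives the authors' log2 fold changes, p-values and q-values against Control. The tools for alignment and counting, the build and the test behind the authors' p-values were not given in the sources used here. The 10 genes and all gene lists were chosen with earlier results of these data known. Genes were named by a rule, namely all 10 in each comparison, the 4 most abundant other keratins, the 2 most abundant genes of each list and the 8 genes most like the set, and a few others were named after their values were seen.

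Genes were tested with edgeR 4.0.16 in R 4.3.3 (quasi-likelihood, TMM scaling, 18543 genes left by filterByExpr with a minimum count of 10, 1 model of 10 group means, Benjamini-Hochberg adjustment within each comparison at 0.05). The contrast of numbers used an additive model of group and number. Standard errors come from the F statistic and intervals are 95%. Depth was 9711814 to 24468093 counts per library. No 2 libraries held identical counts (0 pairs). The numbers were taken to pair 2 groups where the deviations of each same-numbered pair correlated over 0.1, which held in 14 of 21 comparisons (correlations -0.14 to 0.77). An exact test of 3 against 3 libraries cannot go below p = 0.1 and was not used. The fits were tested on simulated data. Alternatives were RLE scaling, no filter, DESeq2 1.42.0, the replicate block, number 1 left out and each library left out.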

Additional observations from a re-analysis of the deposited data

Results flagged for a closer look

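In libraries of the same number, krt8 was above Control in all 3 numbers in EtP BMD5, with a median difference of 0.073 on the log2 CPM scale. It was below Control in all 3 numbers in MtP BMD5 (median -0.28) and in PrP BMD5 (median -0.19). These opposite directions are what drew attention to it. The difference itself, tested with edgeR without the replicate number, did not pass in EtP BMD5 against MtP BMD5 (log2 fold change 0.36, 95% interval -0.63 to 1.35, adjusted p = 0.920). It did not pass in PrP BMD5 against EtP BMD5 either, where it was -0.27. With the number as a block, krt8 had an adjusted p of 0.188 (edgeR) in EtP BMD5 against MtP BMD5, the lowest of the 10 genes. No member passed with the block in either comparison. All 3 medians rest on the same Control libraries.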

How the results depend on the processing

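Calls of members between the numbers (10 of 10) held under each alternative run, and the count of genes called was 8994 without the 10 libraries numbered 2, 8652 without the 10 numbered 3 and 10455 without the 3 Control libraries. Under RLE scaling the median over all genes shifted by 0.02 at most. Without number 1, genes called against Control were 68 in EtP BMD5, 393 in EtP BMD5/10 and 120 in EtP BMD5/50, and against MtP 63 in EtP BMD5 and 482 in EtP BMD5/10, where 1 member, krt97, was called, against 0 with all libraries. The replicate block gave 1 call of all genes in EtP BMD5/10 against MtP BMD5/10 and changed no other call. The cause of these changes was not tested. With 1 library left out in turn, log2 fold changes against Control at BMD5 changed sign for 3 genes in MtP BMD5, with ranges of -0.90 to 0.019 (krt5), -0.54 to 0.042 (krt8) and -0.96 to 0.063 (cyt1l), and for krt8 in PrP BMD5 (-0.45 to 0.039). In EtP BMD5 all 10 did, with ranges of -0.26 to 0.28 (krt4), -0.15 to 0.37 (krt5), -0.18 to 0.32 (krt8), -0.35 to 0.064 (krt91), -0.033 to 0.46 (krt97), -0.36 to 0.15 (krtt1c19e), -0.44 to 0.10 (cyt1), -0.52 to 0.11 (cyt1l), -0.39 to 0.10 (icn) and -0.36 to 0.11 (anxa1a). At the lower labels without the treated replicate 1, 7 of 10 genes were below 0 in MtP BMD5/50, 9 in MtP BMD5/10 and 5 in PrP BMD5/50. There were 8 in PrP BMD5/10, 4 in EtP BMD5/50 and 5 in EtP BMD5/10. Each fit with 1 library left out kept that number in the other group. Without number 1 in both groups, genes below 0 were 10 in MtP BMD5/50, MtP BMD5/10 and PrP BMD5/10. They were 9 in PrP BMD5/50 and 8 in EtP BMD5/50 and in EtP BMD5/10. At BMD5 they were 10 in MtP, 10 in PrP and 6 in EtP. Each member had at least 375 reads in each library.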
